A study of Mus musculus with 12 samples.

Results

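The 8 genes Fos, Fosb, Fosl1, Fosl2, Jun, Junb, Jund and Atf3 encode the factors of AP-1, and the accessibility of their chromatin was compared between mouse embryonic stem cells (mESCs) and mouse embryonic fibroblasts (MEFs). Members were all ATAC-seq peaks that overlapped a gene body, as annotated in GENCODE M21 on GRCm38, extended by 20 kb on both sides. They numbered 107 of 91354 peaks in the peak set built from the BGI data and 109 of 87027 in the set built from the Illumina data. The sets of peaks combined from both instruments held 85 of 61891 peaks for MEFs and 95 of 67063 for mESCs.

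The 6 libraries were made by Omni-ATAC-seq, an assay in which the Tn5 transposase cuts and tags open DNA. They came from 3 MEF samples (numbered 1, 2 and 4) and 3 mESC samples (1, 3 and 5), all of C57/Bl6 background and described as biological replicates. MEFs had been sorted by FACS as Thy1+ cells and mESCs as Thy1-/Ssea1+/Epcam+ cells. Each library was read on a DNBSEQ-G400 (BGI) in 100 bp paired-end mode and on a HiSeqX10 (Illumina) in 150 bp mode with reads cut to 100 bp, which gave 12 samples in 4 groups of 3. The 2 readings of a library are technical repeats, so each test of mESCs against MEFs rests on 3 libraries a cell type. The age and passage of the cells are not given in the sources used here, and nothing ties a MEF sample to an mESC sample.

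AP-1 is a dimer of basic leucine zipper proteins. Fos proteins bind DNA only when paired with a partner such as a Jun protein, whereas Jun proteins can also pair with each other, and ATF3 pairs with Jun proteins or with itself. The dimers read the sequence TGACTCA or the related cyclic AMP response element (CRE) TGACGTCA, and several of the genes are immediate early genes, switched on by serum and stress through MAP kinases. AP-1 is known for its activity at enhancers of fibroblasts. Serum response factor acts on some of these genes through a CArG box.

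The sequences below, of the plus strand of GRCm38, show the DNA at peaks that the results turn on. In the first 6 the capitals mark the AP-1 motif TGACTCA or its reverse complement TGAGTCA.
Fosl1, centred -17.5 kb from the gene start, chr19:5430020-5430086: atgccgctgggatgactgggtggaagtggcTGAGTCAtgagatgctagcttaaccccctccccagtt
Fosb, -7.0 kb, chr7:19316970-19317036: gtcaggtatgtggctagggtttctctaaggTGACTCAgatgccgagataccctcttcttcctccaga
Jund, -16.6 kb, chr8:70682301-70682367: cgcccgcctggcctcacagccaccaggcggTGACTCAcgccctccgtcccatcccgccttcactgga
Junb, -9.4 kb, chr8:84988146-84988212: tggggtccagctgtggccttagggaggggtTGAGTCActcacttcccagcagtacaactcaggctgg
Atf3, 27.8 kb into the gene, chr1:191190018-191190084: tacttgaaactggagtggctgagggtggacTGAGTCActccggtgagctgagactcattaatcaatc
Fosl2, gene start, annotated as UTR, chr5:32135844-32135870: gccattgtagTGACTCAtctcgggcag
In the next pair, from peaks within 1 kb of an annotated start site of Fosb and of Junb, the capitals mark a CArG box.
Fosb, -0.4 kb, chr7:19310278-19310347: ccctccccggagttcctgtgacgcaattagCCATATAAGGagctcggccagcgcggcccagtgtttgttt
Junb, 2.1 kb, chr8:84976594-84976663: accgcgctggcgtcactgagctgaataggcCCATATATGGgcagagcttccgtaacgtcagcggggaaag
The next holds a CRE, in capitals, at the edge of the highest promoter peak of Jund on BGI, and the last is the central 100 bases of the peak with the largest fitted decrease among the members, where none of the 3 motifs was found.
Jund, gene start, chr8:70698705-70698772: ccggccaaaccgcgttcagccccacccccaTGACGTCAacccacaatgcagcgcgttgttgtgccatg
Jun, 19.4 kb, chr4:95032781-95032880: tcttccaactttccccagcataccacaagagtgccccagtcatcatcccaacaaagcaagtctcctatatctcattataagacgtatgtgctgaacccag
Positions in kb run from the start of the gene record in the direction of transcription to the centre of the peak, so that negative values lie upstream.

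Reads in peaks numbered 15860985 to 21662775 per sample on BGI and 15996202 to 21441767 on Illumina, and the median member peak held 204 to 314 and 194 to 334 reads. Levels are given as CPM, the read count of a peak scaled to the total of all reads in peaks of the sample. All 7 mESC markers had a higher promoter peak in each mESC library than in each MEF library, among them Nanog, a pluripotency factor (20.3 to 27.8 against 0.647 to 1.59 CPM on BGI). Of 7 fibroblast markers, 6 were higher in every MEF library, and Pdgfra, with 22.9 to 26.2 CPM in MEFs and 23.4 to 30.2 in mESCs, was not. Epcam and Thy1 are among these markers and were used in the sort. Of 4 macrophage markers only Csf1r had a promoter peak (14.4 to 17.1 CPM in MEFs and 1.01 to 2.77 in mESCs on BGI), and no promoter peak was found for Cx3cr1, Ptprc or Adgre1, for the endothelial gene Cdh5 or for the keratinocyte genes Krt5, Krt14 and Trp63. Tek and Pecam1, of the endothelial list, had promoter peaks of 5.96 to 9.91 CPM in every library on BGI, and the part of other cell types in the results was not tested.

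Most members differed between the cell types. On BGI, 73 of 107 member peaks (68.2%) passed an adjusted p under 0.05 in edgeR's quasi-likelihood test, against 84.1% of all peaks of the set. Of these, 35 were higher in mESCs and 38 lower, where 40.9% and 43.2% of all peaks were. A fold change of at least 2 was reached by 44 members (41.1%), against 63% of all peaks. The CPM of the 3 MEF and the 3 mESC libraries did not overlap at 72 members (67.3%), against 85.1% of all peaks.

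The Illumina readings gave similar counts. Of 109 members 75 (68.8%) were called, 33 higher and 42 lower, against 84.5% of all peaks, 42.1% higher and 42.4% lower. At least 2-fold changes were found at 45 members (41.3%), against 61.8%, and groups did not overlap at 71 (65.1%), against 85.6%. With each library scaled by the study's down-sampled depth the split became 42 higher and 33 lower on BGI and 40 and 34 on Illumina. All peaks moved the same way under that scaling, to 43.5% higher and 38.8% lower on BGI and 44.5% and 38.3% on Illumina.

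Of the 107 BGI members, 50 lay within 1 kb of an annotated start site of any gene, against 32.6% of all peaks. The median size of the log2 fold change was 0.61 for members, 1.74 for all peaks and 0.61 for all promoter peaks, of which 72.3% were called on BGI and 74% on Illumina. The part of this position in the size of the changes was not tested.

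**Figure D1:**
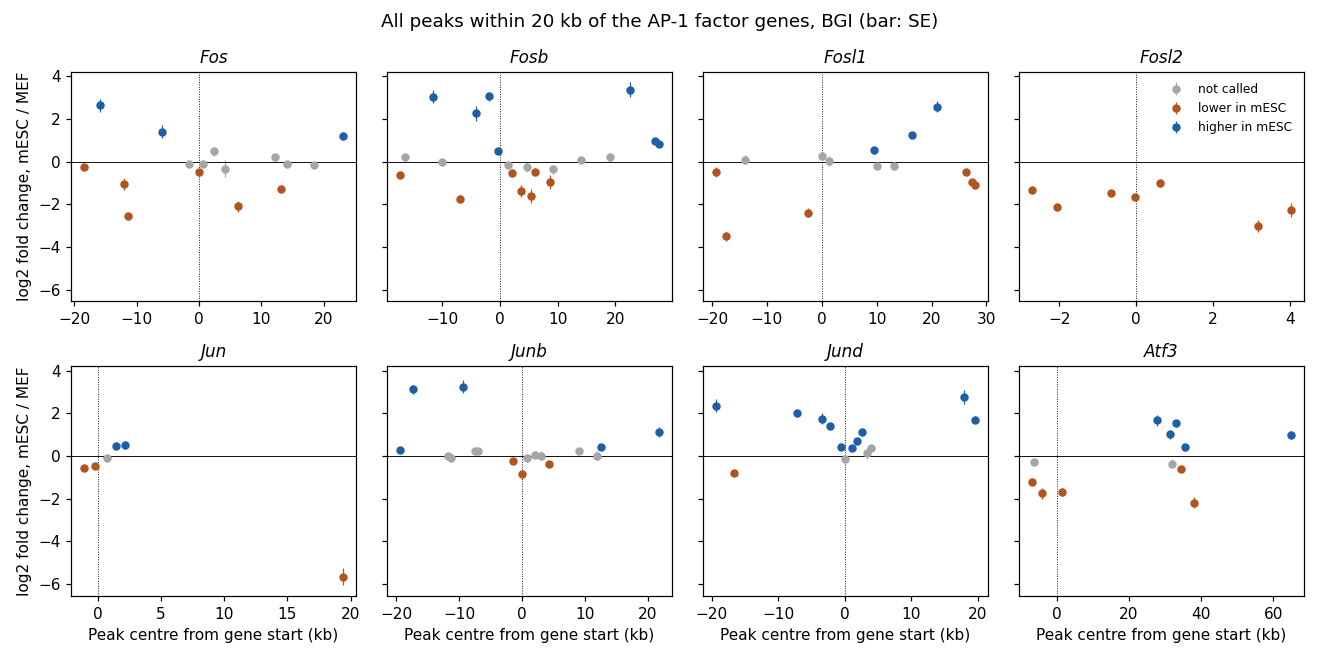
Log2 fold change, mESC over MEF, of each of the 107 BGI member peaks (vertical axis; bars, SE) against the distance of its centre from the gene start (horizontal axis, kb), with 1 panel per gene. All 7 Fosl2 peaks lie below 0, whereas 10 of 14 Jund peaks are called above it; the lowest point is the Jun peak at 19.4 kb.

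The gains and losses of each gene are given as counts, and no test of a difference between genes was made. They stand beside 40.9% higher and 43.2% lower over all BGI peaks. At Fosl2 all 7 BGI peaks were lower in mESCs, and at Jund 10 of 14 were higher and 1 lower. Fos had 3 higher and 6 lower of 16, Fosl1 3 and 6 of 14, Fosb 7 and 7 of 21, Jun 2 and 3 of 6, Junb 5 and 3 of 17, and Atf3 5 and 5 of 12. Over the Fos family genes 13 of 58 peaks were higher and 26 lower, and over the Jun family genes 17 of 37 were higher and 7 lower. Without Jund the Jun family had 7 higher and 6 lower of 23. Without Fosl2 the 100 remaining members split into 35 higher and 31 lower.

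Both instruments gave the same direction wherever both made a call. Of the 97 BGI members that overlapped an Illumina peak by at least 50%, 64 were called on both, none in opposite directions, 2 on BGI alone, 4 on Illumina alone and 27 on neither. The log2 fold changes of the matched peaks differed by a median of 0.09 and at most 0.73.

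The promoters of the 8 genes were open in both cell types. Within 1 kb of a gene's own start sites there were 21 member peaks on BGI, of which 12 (57.1%) were called, 4 higher and 8 lower in mESCs, against 72.3% of all peaks within 1 kb of any start site. On Illumina 9 of 23 (39.1%) were called, 1 higher and 8 lower, against 74%. The highest such peak of each gene is described next, in the order of libraries 1, 2 and 4 for MEFs and 1, 3 and 5 for mESCs. All peaks of these sets are 502 bp wide. CPM levels of GC-rich peaks differed between the instruments, so the order of the genes is given on each.

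Fosl2, which encodes the Fos-related protein FRA2, had the highest promoter peak of the 8 in MEFs (chr5:32135520-32136021). It held 88.7, 80.6 and 87.2 CPM in MEFs and 28.2, 28.2 and 28.5 CPM in mESCs on BGI. The groups lay far apart and the mESC libraries hardly differed among themselves. The log2 fold change was -1.66 ± 0.09 (SE; adjusted p = 1.1e-11, edgeR), a 3.17-fold fall in the TMM-scaled fit. On Illumina the peak held 94.3, 82.3 and 93.1 CPM in MEFs and 32.4, 31.1 and 26.5 in mESCs, with a log2 fold change of -1.63. In mESCs its range overlapped that of the Fos promoter peak described further on.

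Atf3, which encodes a stress-induced ATF family protein, had its highest promoter peak at an internal start site, 34.5 kb into the gene record (chr1:191183280-191183781). This peak holds the start annotated in RefSeq. It held 47.9, 45.7 and 45.1 CPM in MEFs and 34.8, 29.3 and 30.3 in mESCs. Every mESC library was below every MEF library, with a log2 fold change of -0.62 ± 0.10 (adjusted p = 9.54e-06, edgeR) on BGI and -0.67 on Illumina.

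Fos encodes the founding member of its family and is a classic immediate early gene. Its promoter peak (chr12:85473682-85474183) held 38.5, 36.4 and 54.9 CPM in MEFs and 32.1, 35.4 and 27.8 in mESCs. The groups did not overlap, but MEF library 4 stood well above the other two. The log2 fold change was -0.51 ± 0.13 (adjusted p = 0.00212, edgeR), and -0.32 without MEF library 4 (adjusted p = 0.0165). On Illumina it was -0.41 (adjusted p = 0.00421).

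Jun, whose protein is the main partner of Fos, had a promoter peak (chr4:95052220-95052721) of 64.8, 62.6 and 67.7 CPM in MEFs and 48, 53.4 and 47.6 in mESCs. No library crossed over, and the log2 fold change was -0.45 ± 0.09 (adjusted p = 0.0001, edgeR) on BGI and -0.41 (adjusted p = 0.000455) on Illumina. The highest Illumina peak lay at chr4:95051992-95052493 and overlapped the BGI peak only in part.

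At the other 4 genes the highest promoter peak did not pass the test on either instrument, although other promoter peaks of Fosb, Junb and Jund did. Fosb, whose protein resembles FOS, held 45.1, 45.3 and 44.6 CPM in MEFs and 44.1, 42.1 and 42.4 in mESCs (log2 fold change -0.14, adjusted p = 0.142, edgeR). This peak is centred 1.4 kb into the gene. The Fosb peak at -0.4 kb, which carries the CArG box printed above, was called higher in mESCs on BGI (0.47). On Illumina 1 of 3 Fosb promoter peaks was called higher, and the largest change was 0.49. Junb, encoding a Jun protein of weaker activity than JUN at many targets, held 38.7, 38.1 and 53.4 in MEFs and 47.6, 50.4 and 42.6 in mESCs (0.05, adjusted p = 0.702). This Junb peak is centred 2.1 kb into the gene, and its groups overlapped, with MEF library 4 the highest of the 6. Jund, the Jun gene that is expressed most steadily across cell types, held 50.2, 50 and 60.3 in MEFs and 49.2, 58.4 and 46.6 in mESCs (-0.12, adjusted p = 0.279), which also overlapped. On Illumina the Jund value was -0.14, and it became -0.28 and passed (adjusted p = 0.00307) without mESC library 3. The other 2 Jund promoter peaks on BGI were called higher, at 0.41 and 0.38, whereas none of the 2 on Illumina was called.

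Fosl1, encoding FRA1, had the lowest of the 8 promoter peaks, with 13.4, 11.1 and 10.2 CPM in MEFs and 15.6, 13.4 and 15.2 in mESCs. The log2 fold change of 0.28 ± 0.15 missed the threshold (adjusted p = 0.0882, edgeR), and so did the 0.32 on Illumina (adjusted p = 0.0583). Without MEF library 1 it was 0.45 on both instruments (adjusted p = 0.0149 and 0.0173), and without mESC library 3 0.41 on Illumina (adjusted p = 0.0246). Alternatives to the edgeR settings, listed in the closing section, also carried it past the threshold on one or both instruments.

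**Figure D2:**
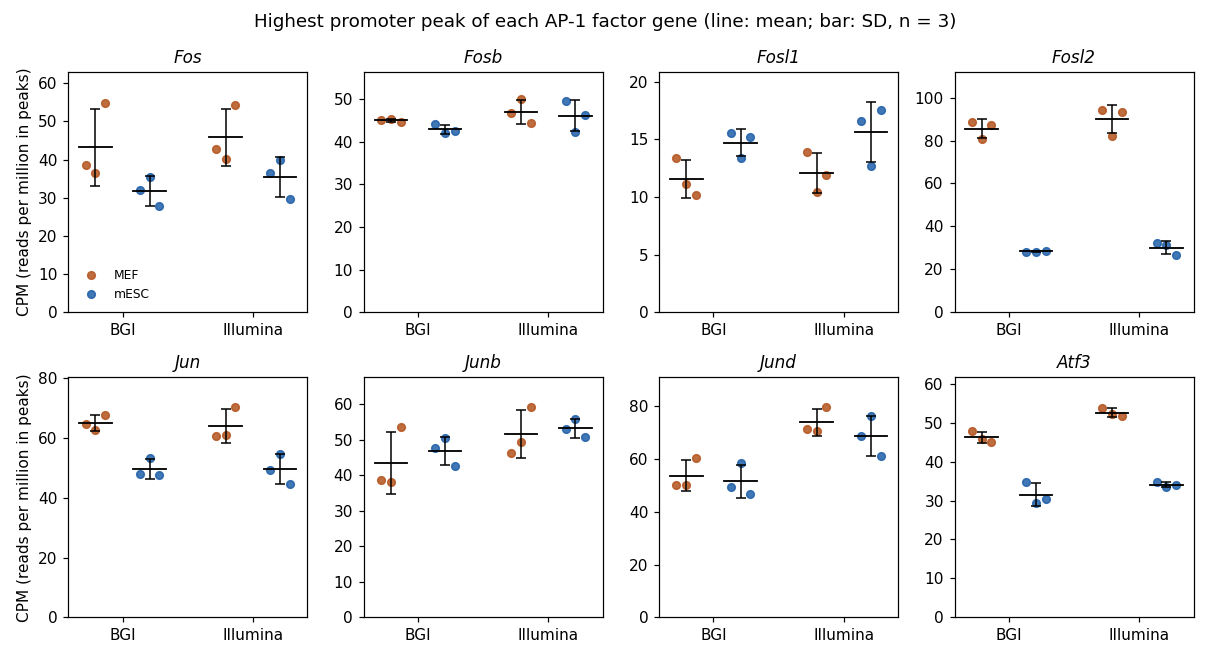
CPM of the highest promoter peak of each AP-1 factor gene (vertical axis, from 0) in MEFs (brown) and mESCs (blue) on each instrument; points are libraries, lines means and bars SD (n = 3). The Fosl2 groups are farthest apart, at means of 85.5 and 28.3 CPM on BGI, while the Junb and Jund groups overlap. The Fosb and Junb peaks are centred 1.4 and 2.1 kb into the gene on BGI.

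In MEFs the order of the promoter means on BGI was Fosl2, Jun, Jund, Atf3, Fosb, Junb, Fos and Fosl1, at 85.5, 65, 53.5, 46.2, 45, 43.4, 43.3 and 11.6 CPM. The ranges of the libraries of Atf3, Fosb, Junb and Fos overlapped, and those of the other neighbours did not. In mESCs the order was Jund, Jun, Junb, Fosb, Fos, Atf3, Fosl2 and Fosl1, at 51.4, 49.7, 46.9, 42.9, 31.8, 31.5, 28.3 and 14.7 CPM. There the ranges of Jund, Jun and Junb overlapped, as did those of Junb and Fosb and of Fos and Atf3. The range of Fosl2 lay within that of Fos. On Illumina the order in MEFs was Fosl2, Jund, Jun, Atf3, Junb, Fosb, Fos and Fosl1, with 73.7 CPM at Jund and 64.1 at Jun, whose ranges overlapped. In mESCs it was Jund, Junb, Jun, Fosb, Fos, Atf3, Fosl2 and Fosl1, with 68.7 CPM at Jund, 53.2 at Junb and 49.5 at Jun, and the ranges of Jund and Junb did not overlap. The places of Jun, Jund and Junb thus differed between the instruments, on which the Jun peaks also covered different intervals. Fosl2 had the highest mean in MEFs and the lowest but one in mESCs on both.

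A second promoter peak of Junb holds the start annotated in RefSeq, and this peak fell in mESCs. The gene record spans several start sites, and the peak at the outermost one (chr8:84978485-84978986) held 36.3, 41 and 46.6 CPM in MEFs and 21.5, 26.8 and 24.8 in mESCs. The groups were apart, with a log2 fold change of -0.82 ± 0.11 (adjusted p = 2.1e-06, edgeR) and -0.76 on Illumina, while the peak 2.1 kb further in, which carries the CArG box printed above, had not passed the test.

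At Fosl2 the loss of accessibility was not limited to the promoter. The peak in the annotated exonic sequence 3.2 kb into the gene held 5.95, 7.95 and 10.4 CPM in MEFs and 0.946, 1.24 and 0.932 in mESCs, a log2 fold change of -3.01 ± 0.29 (adjusted p = 2.22e-08, edgeR). It was the largest fall at this gene and the groups were far apart. The remaining 5 BGI peaks had log2 fold changes between -1.01 and -2.27. The AP-1 motif printed above lies in the peak at the gene start.

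MACS2 peak calls of single libraries placed 48 to 58 summits in the Fosl2 window in MEFs on BGI and 11 to 14 in mESCs, and 47 to 55 and 11 to 13 on Illumina. In the Jun window they placed 13 to 18 and 9 to 12 on BGI. The order was the reverse at Fosb, where MEFs had 34 to 38 and mESCs 41 to 50, and the BGI ranges met or overlapped at Fos (30 to 34 and 33 to 43), Junb (34 to 36 and 36 to 42), Fosl1, Jund and Atf3. On Illumina the Fos ranges lay apart, with 29 to 30 for MEFs against 38 to 45 for mESCs. No test was made of these counts, which depend on the depth of each library.

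The Jun window held the largest fold change among the members. A peak 19.4 kb past the Jun start, in an intron of the noncoding gene Gm12704 (chr4:95032581-95033082), held 13.1, 13.7 and 9.56 CPM in MEFs and 0.252, 0 and 0.497 in mESCs. These correspond to 283, 276 and 192 reads against 4, 0 and 8. A count of 0 allows up to 3 reads, here 0.177 CPM, in counting error alone. The fitted log2 fold change was -5.65 ± 0.41 on BGI (adjusted p = 6.55e-10, edgeR) and -6.12 on Illumina. Its size moved with single mESC libraries, to -6.61 on BGI and -7.44 on Illumina without library 5 and to -5.03 on BGI without library 3. Within the Jun gene itself the peak 2.1 kb from the start rose slightly, with 7.66, 5.82 and 9.66 CPM in MEFs and 12.4, 12.5 and 9.82 in mESCs. Its log2 fold change of 0.52 (adjusted p = 0.017) fell to 0.36 and lost the call without MEF library 2 (adjusted p = 0.0926). The call was also lost without mESC library 1 or 3, at 0.47 and 0.49, and on Illumina (0.37 with all libraries) when any library but MEF 4 was left out.

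Around Fosl1 the largest fall lay in the upstream peak that carries the AP-1 motif printed above (chr19:5429769-5430270), 17.5 kb from the Fosl1 start and nearer to the start of AI837181. It held 24.2, 21.7 and 15.9 CPM in MEFs and 1.83, 1.42 and 2.48 in mESCs. All MEF libraries were several-fold above all mESC libraries, and the log2 fold change was -3.50 ± 0.22 (adjusted p = 1.4e-10, edgeR), with -3.38 on Illumina. A second upstream peak, at -2.4 kb, had a log2 fold change of -2.39. The largest rise at this locus belonged to the promoter of the neighbouring Ctsw, which encodes a cathepsin, at 2.57 (7.5 to 7.98 CPM in mESCs, 1.1 to 1.38 in MEFs).

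Fos had gains and losses on the same side of the gene. The peak at -11.4 kb held 16.4, 17.6 and 20.5 CPM in MEFs and 3.72, 3.07 and 2.86 in mESCs (log2 fold change -2.56 ± 0.17, adjusted p = 2.96e-10, edgeR). The peak at -15.9 kb showed the reverse, with 0.692, 0.746 and 1.1 CPM in MEFs and 4.98, 6.03 and 5.4 in mESCs (2.63 ± 0.31, adjusted p = 3.45e-07). The Illumina values were -2.75 and 2.19. No AP-1 motif was found in any of the 16 BGI peaks of the Fos locus.

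Fosb showed the same mixture. At -7.0 kb, in a peak with 2 matches to the AP-1 motif, accessibility was 22.3, 18.7 and 16.8 CPM in MEFs and 7.63, 4.61 and 5.59 in mESCs (log2 fold change -1.77 ± 0.18, adjusted p = 6.58e-08, edgeR). At -1.9 kb it was 1.34, 1.39 and 1.29 in MEFs and 11.2, 11.1 and 12.7 in mESCs (3.05 ± 0.21, adjusted p = 4.97e-10). The groups were separate at both sites, and the Illumina values were -1.99 and 2.32. The highest log2 fold change of this locus, 3.36, belonged to an exonic peak of the neighbouring gene Rtn2, for which no Illumina peak matched.

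At Junb the 2 largest gains lay on the side of the neighbouring gene Hook2, which encodes a cytoskeletal linker protein. The peak at -9.4 kb, with an AP-1 motif, held 0.646, 0.746 and 1.79 CPM in MEFs and 10.9, 10.8 and 9.88 in mESCs (log2 fold change 3.25 ± 0.30, adjusted p = 1.34e-08, edgeR). The Illumina value was 3.26. A peak in exonic sequence of Hook2 rose by 3.12. On the other side of Junb, 2 peaks near the start of Rnaseh2a, which encodes a subunit of ribonuclease H2, rose by 1.14 and 0.40 on BGI.

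Jund had the largest share of called gains among the 8 genes. The largest rise, 18 kb past the start in exonic sequence of Gm3336, was from 0.554, 1.34 and 1.49 CPM in MEFs to 8.95, 5.62 and 9.26 in mESCs (log2 fold change 2.75 ± 0.32, adjusted p = 3.4e-07, edgeR). Upstream peaks with no GENCODE gene start within 1 kb rose as well. Among them were the 3 nearest upstream peaks outside the promoter, by 1.39 to 2 on the log2 scale. The nearest of them (1.39) lies within 1 kb of the RefSeq start of Jund, which is 1210 bp upstream of the GENCODE gene start. The single loss was the strong peak at -16.6 kb, on the side of Lsm4, with 46.5, 52.9 and 49.7 CPM in MEFs and 31.3, 28.5 and 30.8 in mESCs (-0.79 ± 0.09, adjusted p = 3.17e-07), whose AP-1 motif is printed above.

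Atf3 has the longest GENCODE record of the 8 genes, and 5 of its 10 called BGI peaks were intronic in GENCODE. The RefSeq start lies 34706 bp into the record, so the peak at 27.8 kb is upstream of that start. The peak at 27.8 kb, with an AP-1 motif, held 2.59, 1.79 and 2.84 CPM in MEFs and 10.8, 6.15 and 7.33 in mESCs (log2 fold change 1.68 ± 0.26, adjusted p = 1.1e-05, edgeR). The peak at 38.0 kb held 6.97, 7.11 and 10.3 CPM in MEFs and 2.27, 1.18 and 2.17 in mESCs (-2.18 ± 0.27, adjusted p = 6.38e-07). Illumina gave 1.63 and -1.76.

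**Figure D3:**
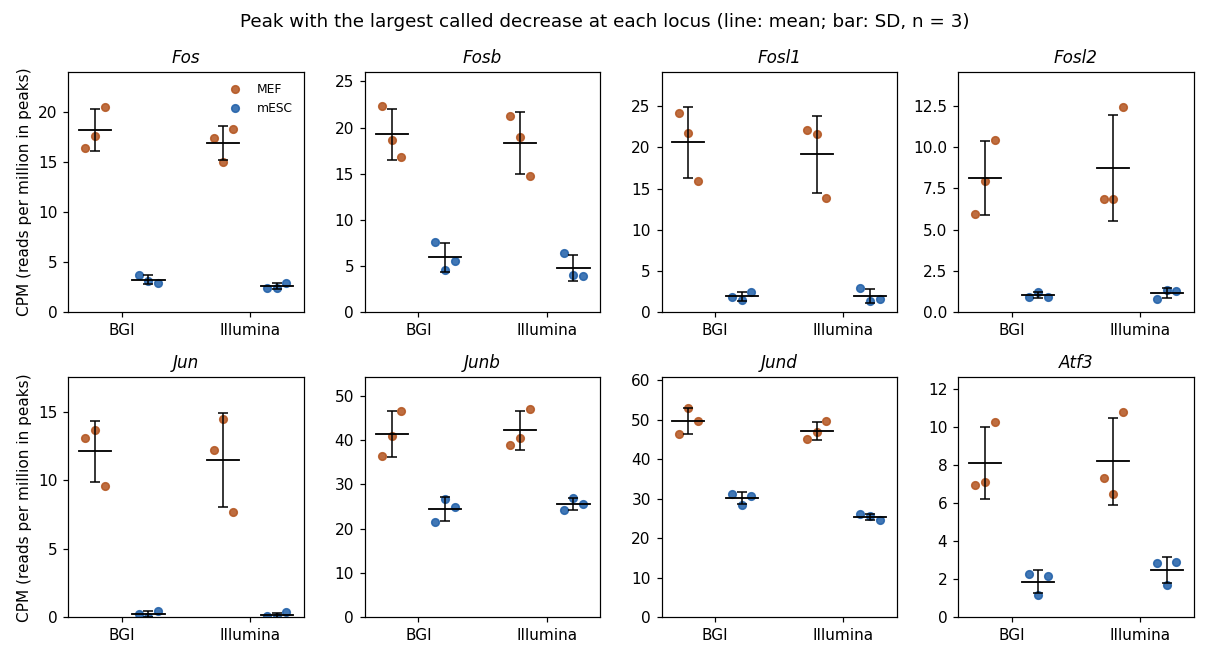
CPM of the peak with the largest called decrease at each locus (vertical axis, from 0, scaled per gene) in MEFs (brown) and mESCs (blue) on each instrument; points are libraries, lines means and bars SD (n = 3). Groups do not overlap in any panel, which the rule for choosing these peaks required; the Jun peak reads 0 to 0.497 CPM in mESCs on BGI.

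Reads were also summed over all peaks of each gene's window and tested over all protein-coding genes with a peak. Of 18376 genes 78.9% were called on BGI, 39.6% higher and 39.3% lower in mESCs, and of 18338 on Illumina 78.9% were, 39.5% higher and 39.4% lower. Of the 8 genes, 1 was higher and 5 were lower on BGI, and 1 and 4 on Illumina. Neighbouring genes share peaks in such sums, and sums of different genes cover different lengths, so they are compared only between cell types.

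Fosl2 had the largest difference, with sums of 200, 197 and 242 CPM in MEFs and 68.5, 71.7 and 71.8 in mESCs (log2 fold change -1.65 ± 0.07, adjusted p = 4.13e-15, edgeR). Jund was the gene that rose, from 198, 216 and 251 to 326, 305 and 290 (0.41 ± 0.06, adjusted p = 5.53e-06). Jun fell from 156, 147 and 164 to 121, 130 and 120 (-0.40, adjusted p = 9.11e-07), and Fosl1 from 200, 189 and 174 to 155, 154 and 154 (-0.35, adjusted p = 1.15e-05). At these 4 genes the groups did not overlap, and the Illumina values were -1.66, 0.37, -0.43 and -0.41.

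The other sums changed little. Junb had 315, 318 and 373 CPM in MEFs and 369, 375 and 366 in mESCs (0.08, adjusted p = 0.16, edgeR), and Fosb 266, 297 and 373 and 343, 317 and 321 (0.01, adjusted p = 0.943). Atf3 passed on BGI (-0.16, adjusted p = 0.016) with 149, 153 and 163 CPM in MEFs and 156, 134 and 143 in mESCs, but not on Illumina (-0.10, adjusted p = 0.119). Without mESC library 3 its BGI value was -0.10 (adjusted p = 0.0999), and without mESC library 5 the call was lost at -0.16 (adjusted p = 0.0521). Leaving out mESC library 1 brought the Illumina value to -0.14 (adjusted p = 0.0461).

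Fos passed on both instruments (-0.19 and -0.17, adjusted p = 0.0191 and 0.0344), with overlapping groups of 276, 285 and 370 CPM in MEFs and 279, 299 and 272 in mESCs on BGI. This call rested on MEF library 4. Without it the log2 fold change was -0.06 on BGI and -0.05 on Illumina (adjusted p = 0.271 and 0.429). The call was also lost on BGI without mESC library 1 (-0.19, adjusted p = 0.0507) or 5 (-0.17, adjusted p = 0.0927). Leaving out mESC library 5 also ended it on Illumina (-0.12, adjusted p = 0.181).

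**Figure D4:**
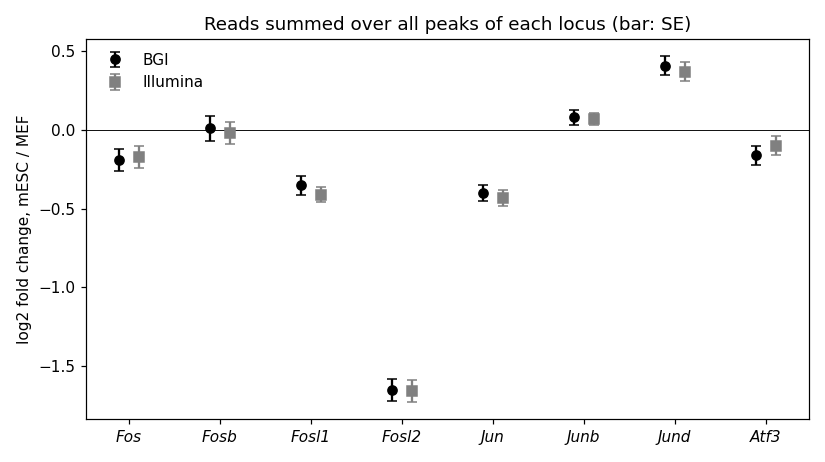
Log2 fold change, mESC over MEF (vertical axis), of the reads summed over all peaks of each of the 8 genes (horizontal axis) on BGI (black circles) and Illumina (grey squares); bars are SE. Fosl2 stands at -1.65 and -1.66, Jund is the only gene called above 0, and Fosb and Junb lie near 0.

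MEF library 4 was the highest of the 3 MEF libraries at 74 of 107 members on BGI (69.2%), against 42.1% of all peaks, and at 76 of 109 on Illumina (69.7%), against 39.8%. On BGI it was the highest at 13 of 16 peaks at Fos and at 17 of 21 at Fosb. Fosl1 did not share this, with 6 of 14 on BGI (42.9%) and 5 of 14 on Illumina (35.7%). Without it 41 members were higher and 33 lower in mESCs on BGI, and the sums of Fosb (0.14, adjusted p = 0.0201) and Junb (0.15, adjusted p = 0.00555) passed the threshold. On Illumina Junb did as well (0.11, adjusted p = 0.0366), while Fosb did not (0.10, adjusted p = 0.122). Fosl2 (-1.57), Jun (-0.37), Jund (0.49) and Fosl1 (-0.41) kept their calls on BGI. What sets this library apart at these genes was not tested.

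The genes whose sums followed each member most closely over the 6 BGI samples were named by Pearson's r of log2 CPM, as a description. They were Gm49673 for Fos (r = 0.994), Hba-a2 for Fosb (0.980), Mnd1 for Fosl1 (0.998), Gas1 for Fosl2 (1, rounded), Calml4 for Jun (0.999), Tpt1 for Junb (0.989), Stmnd1 for Jund (0.998) and Dpep1 for Atf3 (0.979). For Fosl2 3597 of 18375 genes exceeded an r of 0.95, for Jun 1430 and for Jund 720, against 8 for Fosb and 11 for Atf3. The 6 points share their libraries and fall into 2 cell types.

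The other genes of the pathway were read from the same sums, over lists of genes chosen by their known roles. Of 15 further AP-1 and basic leucine zipper partners 3 were higher and 7 lower in mESCs on BGI (median log2 fold change -0.05; 3 and 9 on Illumina, median -0.20). Among them Batf, which pairs with Jun proteins in lymphocytes, had -1.36 and the repressor Bach2 -1.20, while Nfe2l2, which encodes the oxidative stress regulator NRF2, had 0.55. Of 12 upstream MAP kinases 5 were higher and 5 lower (median 0.09; 4 and 2 on Illumina, median 0.02), with Map2k1, encoding the ERK kinase MEK1, at 0.69 and Map3k1 at 0.62.

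Of 7 transcription factors that act upstream of AP-1 genes, 2 were higher and 5 lower on BGI (median -0.63; 1 and 5 on Illumina, median -0.66). The serum response cofactor genes Mrtfa and Mrtfb had -1.16 and -0.98, Srf itself -0.43 and its partner Elk1 0.33. Of 13 feedback and immediate early genes 2 were higher and 7 lower (median -0.12; 2 and 6 on Illumina, median -0.10). Ier5 had -1.61 and Egr3 -1.11, Ier2 0.98 and the MAP kinase phosphatase gene Dusp1 0.37, and Egr1, a zinc finger immediate early gene, did not pass at -0.01.

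Of 13 known AP-1 targets 10 had peaks, with 3 higher and 6 lower (median -0.96; 3 and 6 on Illumina, median -1.06). Matrix metalloproteinase genes Mmp3, Mmp10 and Mmp13 had no peak in their windows. The chemokine gene Ccl2 had -4.10, the hyaluronan receptor gene Cd44 -2.97 and the cytokine gene Il6 -2.61 on BGI. On Illumina they had -4.09, -2.50 and -4.75, the last with 0 to 0.438 CPM in mESCs. The sums rest on different peaks, with 11 on BGI and 7 on Illumina at Ccl2 and 5 and 8 at Cd44. Il6 had 1 peak in each set, with MEF means of 24.3 CPM on BGI and 7.05 on Illumina. Mmp9 rose (0.76 on BGI). These counts stand beside a median of all genes at 0 and the 78.9% of genes called.

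Motifs were searched in the reference sequence under each peak. TGACTCA, on either strand, was found in 19 of 107 BGI members (17.8%) and in 19.9% of all BGI peaks with sequence, and in 15.6% and 19.2% on Illumina. It was held by 6 of 35 members higher in mESCs, 7 of 38 lower and 6 of 34 not called, whereas over all BGI peaks it was held by 14.3% of those higher, 28.5% of those lower and 10.9% of those not called. On Illumina 6 of 33 higher members held it, 5 of 42 lower and 6 of 34 not called, against 13.9%, 27.6% and 10.7% of all peaks. In the peak sets of single cell types it was in 20% of MEF members, against 22.9% of all MEF peaks, and in 18.9% of mESC members, against 13.5%. The CRE was found in 1 member (1.17% of all BGI peaks) and the CArG box in 6 (5.61%, against 2.55%). In the RefSeq promoters (GRCm38; 250 bases before to 50 after each start), which matched 7 of the 8 genes, none of the 3 motifs was found, where 5.2%, 1.79% and 1.63% of 32851 promoters hold the AP-1 motif, the CRE and the CArG box. None of the motifs printed above lies in these windows. The RefSeq start lies 1210 bp upstream of the GENCODE gene start at Jund, 671 bp downstream at Fosl2 and 34706 bp downstream at Atf3. The Fosb CArG box lies just past the upstream end of its window. Fosl1 was not matched. A match is a description of the letters and not a binding site.

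The instruments were compared within a cell type over the peak sets of both platforms. Without a term for the library, 2 of 85 members were called in MEFs, both lower on BGI, against 4.06% of all MEF peaks, and 1 of 95 in mESCs, also lower, against 3.23%. Both MEF calls were at the start of Jund. The peak at chr8:70698714-70699239 held 56.6 ± 6.3 CPM on BGI and 74.2 ± 5.34 on Illumina (SD, n = 3; log2 ratio -0.41, adjusted p = 0.0319, edgeR), and the peak at chr8:70699833-70700334 had a log2 ratio of -0.62 (adjusted p = 0.0464). The mESC call was a promoter peak of Ccdc85b, next to Fosl1 (-0.48, adjusted p = 0.0356). These calls depended on single libraries: no MEF member was called without library 1 or 2 and 13 were without library 4, and no mESC member was called without library 1 or 5.

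With the library as a block, 25 MEF members were called, 2 higher and 23 lower on BGI, against 29.2% of all peaks, and 31 mESC members, 3 higher and 28 lower, against 21.3%. Most of the calls lower on BGI were at peaks with a GC content of at least 60%, for the members as for all peaks. Of 35 such MEF members, 19 were lower on BGI (54.3%, against 59.2% of all peaks of that GC content) and none higher (median log2 ratio -0.22, against -0.23), and of the 50 others 4 were lower (8%, against 2.81%) and 2 higher (4%, against 17.4%; median -0.01, against 0.12). In mESCs the counts were 23 lower (60.5%, against 57.4%) and none higher of 38 (median -0.21, against -0.23), and of the 57 others 5 were lower (8.77%, against 3.05%) and 3 higher (5.26%, against 7.26%; median -0.01, against 0.06).

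When a GC trend over all peaks was taken out in the same fit with the block, 15 MEF members were called, 9 higher and 6 lower on BGI, against 11.8% of all peaks, and 11 mESC members, 6 and 5, against 8.62%. Of the 2 Jund peaks, the one at chr8:70698714-70699239 was then at 0.06 (adjusted p = 0.486), while the one at chr8:70699833-70700334 stayed lower on BGI at -0.36 (adjusted p = 0.00317), as did the mESC peak there at -0.24 (adjusted p = 0.0343). Median GC was 58% for BGI members and 51% for all peaks.

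**Figure D5:**
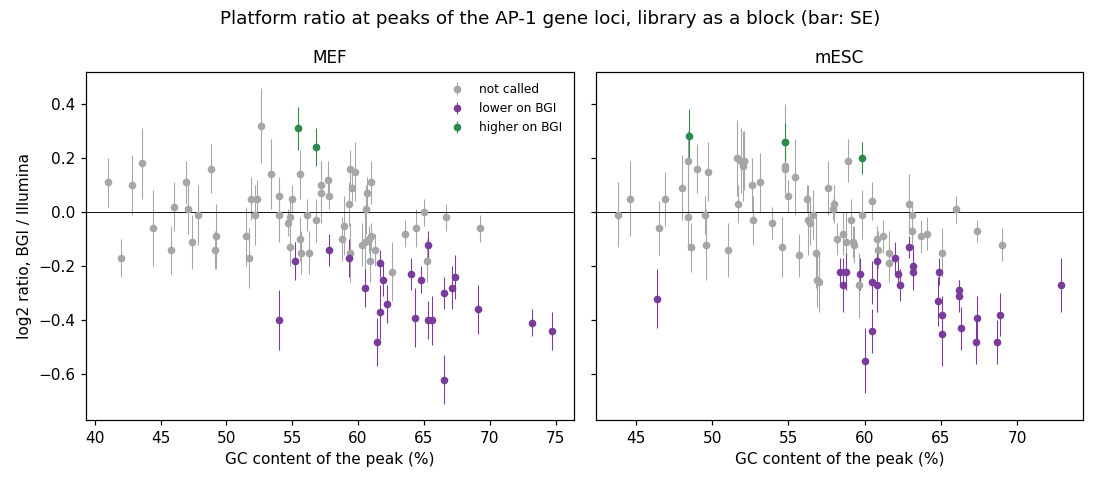
Log2 ratio of BGI to Illumina (vertical axis; bars, SE) of the member peaks, from the fit with the library as a block, against the GC content of the peak (horizontal axis, %), in MEFs (85 peaks) and mESCs (95 peaks). Calls lower on BGI, in purple, lie mostly at a GC content of 60% or more, where the medians are -0.22 and -0.21.

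The difference between cell types was tested for a dependence on the instrument as an interaction on the BGI peak set. None of 107 members was called in edgeR's test, with or without the block, against 0% of all peaks without it and 0.386% with it. An unadjusted p under 0.05 was reached by 4 members without the block (3.74%, against 2.61% of all peaks) and by 27 with it (25.2%, against 13.2%). The 4 were the Fosb peak at -1.9 kb (interaction of 0.90 on the log2 scale), a peak at Efemp2 in the Fosl1 window (0.63), the Jund peak on the side of Lsm4 (0.27) and an Atf3 peak at 35.5 kb (0.36). In simulated data the test without the block recovered 36.5% of 2-fold interactions, so that it would often miss interactions of that size. The test with the block was not simulated.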

How the data were processed

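Omni-ATAC-seq counts were analysed for 6 libraries (3 MEF, 3 mESC), each read on BGI and Illumina. According to the study's methods, the authors trimmed reads with Cutadapt, aligned them with Bowtie2 to GRCm38 (mm10), removed duplicates, reads of low mapping quality and mitochondrial reads, down-sampled to a fixed depth for each cell type (more reads in MEFs), called peaks with MACS2 and counted reads per peak with subread. The deposited count tables hold raw read counts per peak, with no normalization. The peak calls deposited per library hold a score, a fold enrichment and −log10 p and q values, and were used for summit counts. The deposited lists of reproducible peaks, with start and end only, were used for membership.

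The members and the gene lists were chosen with earlier results of these data known. Columns with no instrument suffix were taken as Illumina. Peaks overlapping the 8 gene bodies extended by 20 kb were members. Tests were edgeR 4.0.16 quasi-likelihood tests in R 4.3.3 (TMM, filterByExpr, Benjamini-Hochberg over each whole table, adjusted p under 0.05, two-sided), between cell types on each instrument, between instruments in each cell type, and for their interaction. CPM is a count divided by the reads in peaks of the sample, without TMM. Scripts were tested on simulated data: 93.5% of 200 peaks with 2-fold changes were recovered between cell types on BGI and 95.5% between instruments in MEFs.

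Named were, per gene, the promoter peak (within 1 kb of an own start site) with the highest mean CPM, and the largest rise and fall among peaks called on both instruments with groups not overlapping on either. The genes of the pathway lists that are named with values were picked after their values were seen, as were the distal peaks beside these. Peaks matched at 50% overlap. No 2 samples held identical values.

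Library numbers pair the 2 readings of a library, by design. Deviations from group means correlated at 0.697, 0.618 and 0.837 in MEFs and 0.654, 0.722 and 0.514 in mESCs for readings of the same library, and at 0.298 or less for others. GC content was corrected by a lowess trend (span 0.3) as an offset in the fit with the block. Alternatives were DESeq2 1.42.0, RLE size factors, scaling by total reads in peaks or by down-sampled depth, other filters, other extensions and leaving out each library. Sequences came from RefSeq tables and the GRCm38 reference. Intervals of 0 counts cover counting error only.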

Additional observations from a re-analysis of the deposited data

How the results depend on the processing

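No paired analysis of mESCs against MEFs was possible because the groups share only the number 1 and nothing ties their samples. On BGI 23 of 35 members (65.7%) were called with no extension of the gene bodies, 40 of 60 (66.7%) with 5 kb and 136 of 182 (74.7%) with 50 kb, beside 73 of 107 (68.2%) in the text and 84.1% of all peaks. On Illumina these were 24 of 38 (63.2%), 41 of 63 (65.1%) and 140 of 185 (75.7%), beside 75 of 109 (68.8%) and 84.5%. At least 2-fold changes were called at 44 members on BGI (41.1%, against 63% of all peaks) and 45 on Illumina (41.3%, against 61.8%). Without 1 library 69 to 75 members were called on BGI, and 69 to 78 were on Illumina. Between instruments, DESeq2 called 6 members in MEFs and 2 in mESCs, and RLE size factors gave 4 in MEFs, against 2 and 1. The replicate block gave 25 and 31 and the block with the GC offset 15 and 11, and the block changed no call of the interaction (0). Without 1 library the MEF count ranged from 0 (without library 1 or 2) to 13 (without library 4), and the mESC count from 0 (without library 1 or 5) to 1. With the block, in an alternative chosen after seeing the data, it ranged from 17 to 32 (18 without library 1) in MEFs and from 22 to 23 in mESCs. The causes were not tested.

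Of 552 alternative values of named peaks 525 kept direction and side of the threshold, and of 192 of the locus sums 160 did. Reversals were of uncalled values of at most 0.14 in size. Scaling by down-sampled depth moved the median log2 fold change of all peaks from -0.08 to 0.06 on BGI and, on Illumina, -0.03 to 0.09. It gave 0.00 and 0.05 for the Fosb promoter (BGI, Illumina), 0.02 for the Jund promoter on BGI, and 0.10 for the Fosb and 0.02 for the Atf3 sum on Illumina. Total reads in peaks gave 0.02 for the Fosb sum on Illumina, and DESeq2 and RLE -0.00 for the Junb promoter there. Without 1 library the Junb promoter lay between -0.03 and 0.21 on BGI, and on Illumina between -0.08 and 0.07 (-0.06 and -0.07 without MEF 1 and 2), and the Fosb sum between -0.09 and 0.14 on BGI (-0.02 without MEF 2, -0.03 without mESC 1), and on Illumina between -0.13 and 0.10 (0.01 without mESC 3). The Fos sum lost its call on both instruments with DESeq2 (-0.19, -0.17), total reads (-0.13 on both) and down-sampled depth (-0.05 on both), and the Atf3 sum on BGI with total reads (-0.10) and down-sampled depth (-0.03). The Junb sum gained a call with total reads (0.14, 0.12) and down-sampled depth (0.22, 0.20), the Fosb sum on BGI with the latter (0.15), and the Fosl1 promoter on BGI with DESeq2 (0.32), on both with total reads (0.35, 0.37) and down-sampled depth (0.42, 0.44), and on Illumina with a mean count of at least 50 (0.36). The AP-1 motif share in the central 200 bases was 15% of members and 15.6% of all peaks on BGI (11.9% and 15% on Illumina). Member counts of 194 to 334 reads at the median limit what small changes can be seen.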

Other observations

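Membership in the lists of reproducible peaks that the authors made per cell type was counted on BGI. The counts are a description, because the shares of all BGI peaks are not given beside them. Of the 107 BGI members, 57 overlapped (by at least 50%) a peak of both the MEF and the mESC list, 25 one of the MEF list alone and 25 one of the mESC list alone. At Jund, 7 of 14 members overlapped the mESC list alone and 2 the MEF list alone. At Fosl2 3 of 7 overlapped the MEF list alone and 1 the mESC list alone, and all 7 were lower in mESCs in the counts.

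Among the Fosl1 members, 3 peaks near the start of Efemp2, which encodes an extracellular matrix protein, were lower in mESCs on BGI, with log2 fold changes of -0.50, -0.94 and -1.09.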
